A study of Mus musculus and Rattus norvegicus with 6 samples.

Results

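The complement and coagulation genes of liver encode the plasma proteins that mark and lyse microbes and that form and dissolve a clot. They were taken as every probe set annotated to 45 listed gene symbols, which stand for 44 genes because C5 is written Hc in mice; serpins were not in the list. In mice, 41 of the 44 genes had a probe set of their own, 60 probe sets among 45037 on the array and 41 genes among 18193. In rats, 37 of the 44 genes had one, 51 probe sets among 31042 and 37 genes among 14217. C3, Cfd and Cpb2 were not analysed in mice, and C2, Cfb, F7, F11, F13b, Kng1 and Habp2 were not analysed in rats, where 4 probe sets carried the symbols of both Cfb and C2 and 1 carried 3 kininogen symbols.

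Livers of male mice and rats were profiled on 6 Affymetrix arrays, 1 array per group. The mouse groups, on a C57/BL6J background, were leptin-treated Lepob/Lepob, saline-treated Lepob/Lepob and saline-treated WT. The rat groups, on an F344/NSlc background, were leptin-treated Lepmkyo/Lepmkyo, saline-treated Lepmkyo/Lepmkyo and saline-treated WT. All animals were 20 weeks old, the controls were littermates, and liver was taken 6 h after 1 intraperitoneal injection of recombinant murine leptin or saline, a time chosen by the submitters to precede changes in feeding and body weight. Both mutations are in the gene for leptin, the hormone of fat cells that lowers food intake, so the mutants lack leptin and become obese; rats received mouse leptin, and no leptin-treated WT array was used here. The labels spell the rat genotype in several ways, and the spelling Lepmkyo of the descriptions and the design was used. They do not say whether an array carried 1 animal or a pool.

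Hepatocytes make most circulating complement and clotting proteins and secrete them into plasma. Complement is started by recognition proteins and their proteases, passes through C3 and C5, and ends in a pore of terminal components inserted into a target membrane. Clotting factors activate each other in a chain that ends with thrombin, which turns fibrinogen into fibrin; anticoagulant proteins slow the chain and plasmin dissolves the clot. Several of these genes, fibrinogen among them, are induced by interleukin 6 in the acute phase response, and C1q and von Willebrand factor come largely from macrophages and endothelial cells.

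Values are MAS5 signals, linear fluorescence intensities of a probe set in arbitrary units, which can be compared between arrays of 1 species for the same probe set but not between probe sets. A gene is given by its brightest probe set. Where the signals of a marker list are summed, the sum follows its brightest genes and is no measure of the amount of a cell type. Each platform's overall median signal, 82.7 for the mouse arrays and 97.0 for the rat arrays, served as a floor, and a gene was measured in a comparison if at least 1 of its 2 arrays reached it. Genes were counted when the 2 arrays were at least 2-fold, or at least 1.5-fold, apart. With 1 array per group no difference could be set against variation between animals, and no test was run. The saline-treated mutant array enters both the genotype and the leptin comparison of its species, so the 2 comparisons are not independent. Ratios of different probe sets of the same gene had a pooled standard deviation of 0.45 on the log2 scale in the mouse genotype comparison (5333 genes) and 0.44 in the rat one (2397 genes), and of 0.26 and 0.25 in the leptin comparisons; this measures technical spread only.

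Hepatocyte markers were bright on every array. The 8 hepatocyte markers measured in mice, such as albumin, had signals from 32367.3 to 66648.6, and the 9 measured in rats from 29410.4 to 47468.0. The adipocyte markers Adipoq and Lep were under the floor on all 6 arrays. In the genotype comparison all 8 hepatocyte markers were below 0 in mice, with a median log2 ratio of -0.35, and all 9 in rats, with a median of -0.13. In the leptin comparison 7 of 8 were above 0 in mice, with a median of 0.02, and 9 of 9 in rats, with a median of 0.125.

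In the mouse genotype comparison, saline-treated Lepob/Lepob against saline-treated WT, 5 of 41 genes were at least 2-fold lower and 1 was at least 2-fold higher. The 5 were the terminal complement components C6, C8b and C8a, clotting factor F11 and the protease Habp2, and the 1 was Vwf. Lower genes made up 12.2% of the members, against 3.71% of the 11956 genes measured, and the higher gene 2.44%, against 4.46%. At 1.5-fold, 11 members were lower and 2 higher, which is 26.8% and 4.88% of the members, against 12.6% and 12.3% of all genes. In all, 29 members lay below 0 and 12 above, and their median log2 ratio was -0.33, against -0.03 for all genes, of which 52.5% lay below 0.

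The scaling between arrays bears on these shares. MAS5 had brought the trimmed means of the arrays to 496.0 to 496.9, but the mouse medians were 79.1 with leptin and 77.0 with saline in Lepob/Lepob, against 91.9 in WT. When each array was instead centred on its median, the median of all mouse genes in the genotype comparison moved to 0.22, and the share of genes 2-fold higher and lower became 8.12% and 1.98%; with quantile normalization it was 5.60% and 2.96%. The members' median relative to that of all genes was -0.31 as deposited, -0.24 after quantile normalization and -0.295 after centring. Their own median was -0.20 after quantile normalization and -0.08 after centring, where 22 members lay below 0 and 19 above. Under all 3 scalings, 22 of the 41 members were below 0 and 12 were above. At 1.5-fold the lower members numbered 11 after quantile normalization, against 9.91% of all genes, and 6 after centring, against 6.22%.

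**Figure D1:**
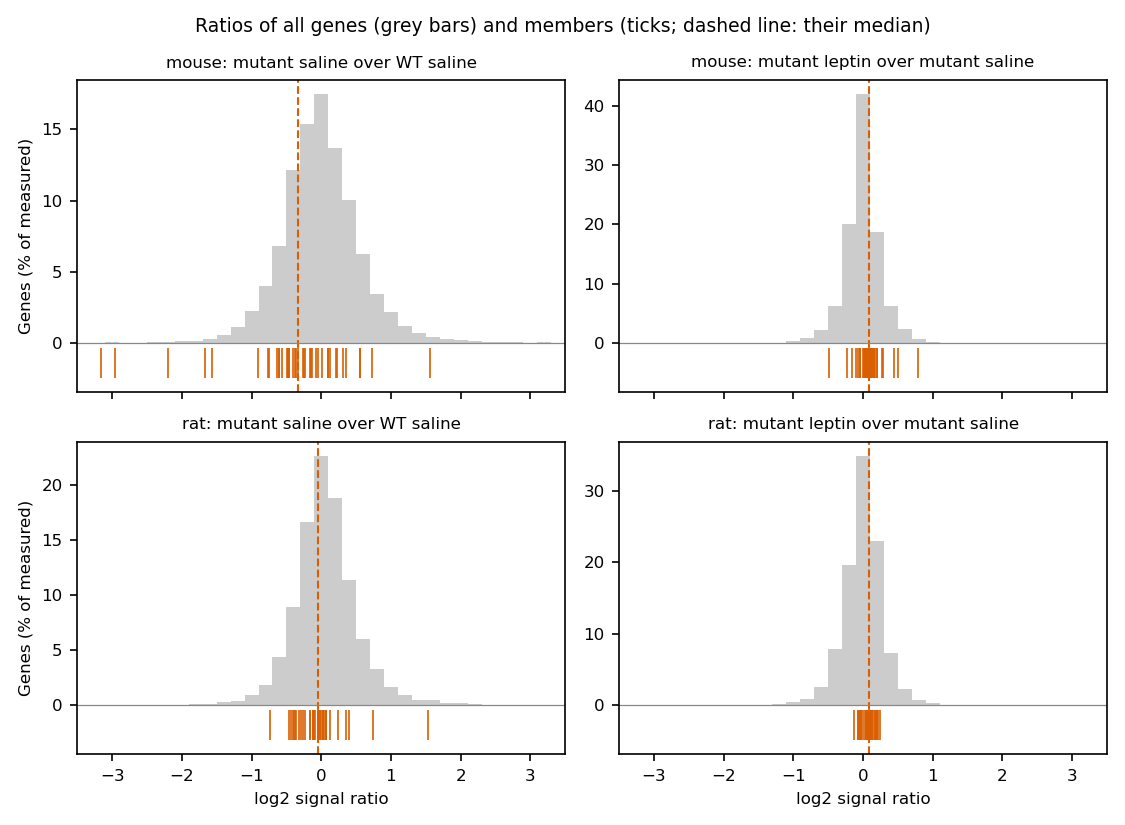
Histograms (grey) give the percent of measured genes by log2 signal ratio in each species and comparison, short ticks give the individual complement and coagulation genes, and the dashed line their median. The mouse genotype panel has 5 ticks at or below -1 and a median of -0.33, whereas in the leptin panels every tick lies between -0.49 and 0.795 in mice and between -0.13 and 0.25 in rats.

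The central and terminal components of complement build the membrane attack complex, the pore that opens a target cell. In mice, 6 of these genes were measured and 5 were lower at 1.5-fold in saline-treated Lepob/Lepob than in WT liver, with a median log2 ratio of -1.23 over the 6. Of all mouse genes measured, 12.6% were lower at 1.5-fold. C6, the component that follows C5 in the assembly, had the lowest ratio of all members. Its signal was 1226.9 in leptin-treated Lepob/Lepob and 707.3 in saline-treated Lepob/Lepob, against 6303.5 in WT, so that the saline-treated mutant was 8.91-fold lower (log2 ratio -3.16). C8b, the beta chain of C8, had 1899.2 with leptin and 1347.7 with saline in Lepob/Lepob, against 10467.9 in WT, a 7.77-fold lower value. C8a, the alpha chain of C8, which inserts into the membrane, had 13859.0 and 10208.8 in leptin- and saline-treated Lepob/Lepob, against 30231.2 in WT, a 2.96-fold lower value. For these 3 genes the WT array stood above both mutant arrays, and the leptin-treated mutant lay between the saline-treated mutant and WT.

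C9, whose copies polymerise into the pore, had 19572.9 and 17050.4 in leptin- and saline-treated Lepob/Lepob, against 31860.4 in WT, 1.87-fold lower with saline. Hc, the mouse C5 gene, had 17474.1 and 15658.4, against 26335.2 in WT, 1.68-fold lower with saline. C8g, the gamma chain of the same C8 protein, is a lipocalin rather than a pore-forming protein. It had 18538.9 and 17231.4 in leptin- and saline-treated Lepob/Lepob, against 16177.1 in WT, 1.07-fold higher with saline, so the 3 chains of C8 did not share a ratio. The direction of all 6 genes was the same as deposited, after quantile normalization and after centring. Each of the 6 had 1 probe set, so none of these ratios could be set beside another probe set of the gene. The probe sets of C8b and C8g bear a suffix for probe sets that can bind several transcripts.

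In rats, 7 central and terminal genes were measured and 1 was at least 1.5-fold lower, against 5.92% of all rat genes. C6 had 5180.5 and 5266.2 in leptin- and saline-treated Lepmkyo/Lepmkyo, against 8750.3 in WT, 1.66-fold lower with saline, and this was the lowest rat genotype ratio of a member. C8b had 16032.8 and 15021.9, against 18087.0 in WT, 1.20-fold lower with saline. C8a had 15435.9 and 15037.7, against 15217.4 in WT, with a log2 ratio of -0.02, and C9 had 29128.6 and 25289.6, against 25358.3, with one of 0.00. Both mutant signals lay below WT for C6 and C8b, whereas for C8a and C9 the saline-treated mutant and WT were within 1.01-fold. C5 had 11120.6 and 11545.0 in leptin- and saline-treated mutants, against 8770.8 in WT, 1.32-fold higher with saline. C3, the hub at which all routes of activation meet, had 52417.5 and 46536.9, against 50337.9 in WT, 1.08-fold lower with saline. The C3, C8a and C9 ratios changed sign with the scaling.

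The windows from 250 bases before to 50 after the annotated starts are shown for the 3 terminal complement genes that were at least 2-fold lower. They are RefSeq sequences of build GRCm38.p6, at chr15:4726960-4727259 (plus strand) for C6, chr4:104766067-104766366 (plus) for C8b and chr4:104876349-104876648 (minus) for C8a. Capitals mark matches to the motif letters of liver and acute phase factors given further on.
C6: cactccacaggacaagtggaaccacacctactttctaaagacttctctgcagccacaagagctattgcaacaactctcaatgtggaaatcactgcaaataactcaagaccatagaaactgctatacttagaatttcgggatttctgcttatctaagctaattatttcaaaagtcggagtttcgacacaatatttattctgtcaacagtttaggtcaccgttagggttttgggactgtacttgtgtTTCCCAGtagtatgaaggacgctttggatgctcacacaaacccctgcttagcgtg
C8b: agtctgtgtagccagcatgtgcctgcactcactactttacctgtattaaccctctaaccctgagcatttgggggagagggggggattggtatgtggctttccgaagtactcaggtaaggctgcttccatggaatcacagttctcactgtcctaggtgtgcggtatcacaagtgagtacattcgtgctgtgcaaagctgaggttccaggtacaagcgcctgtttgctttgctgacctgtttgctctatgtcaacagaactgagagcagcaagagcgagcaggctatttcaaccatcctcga
C8a: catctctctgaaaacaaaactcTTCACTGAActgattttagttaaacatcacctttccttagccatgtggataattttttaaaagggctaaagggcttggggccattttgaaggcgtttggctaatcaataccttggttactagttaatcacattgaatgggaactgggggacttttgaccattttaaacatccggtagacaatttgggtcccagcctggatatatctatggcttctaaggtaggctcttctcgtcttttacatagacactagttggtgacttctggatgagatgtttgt
C6 held 1 match, to the interleukin 6 element at position -5 counted from the start, C8a held 1, to the STAT letters at -228, and C8b held none. C8b and C8a are adjacent protein-coding genes on chromosome 4 with genotype ratios of -2.96 and -1.57.

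**Figure D2:**
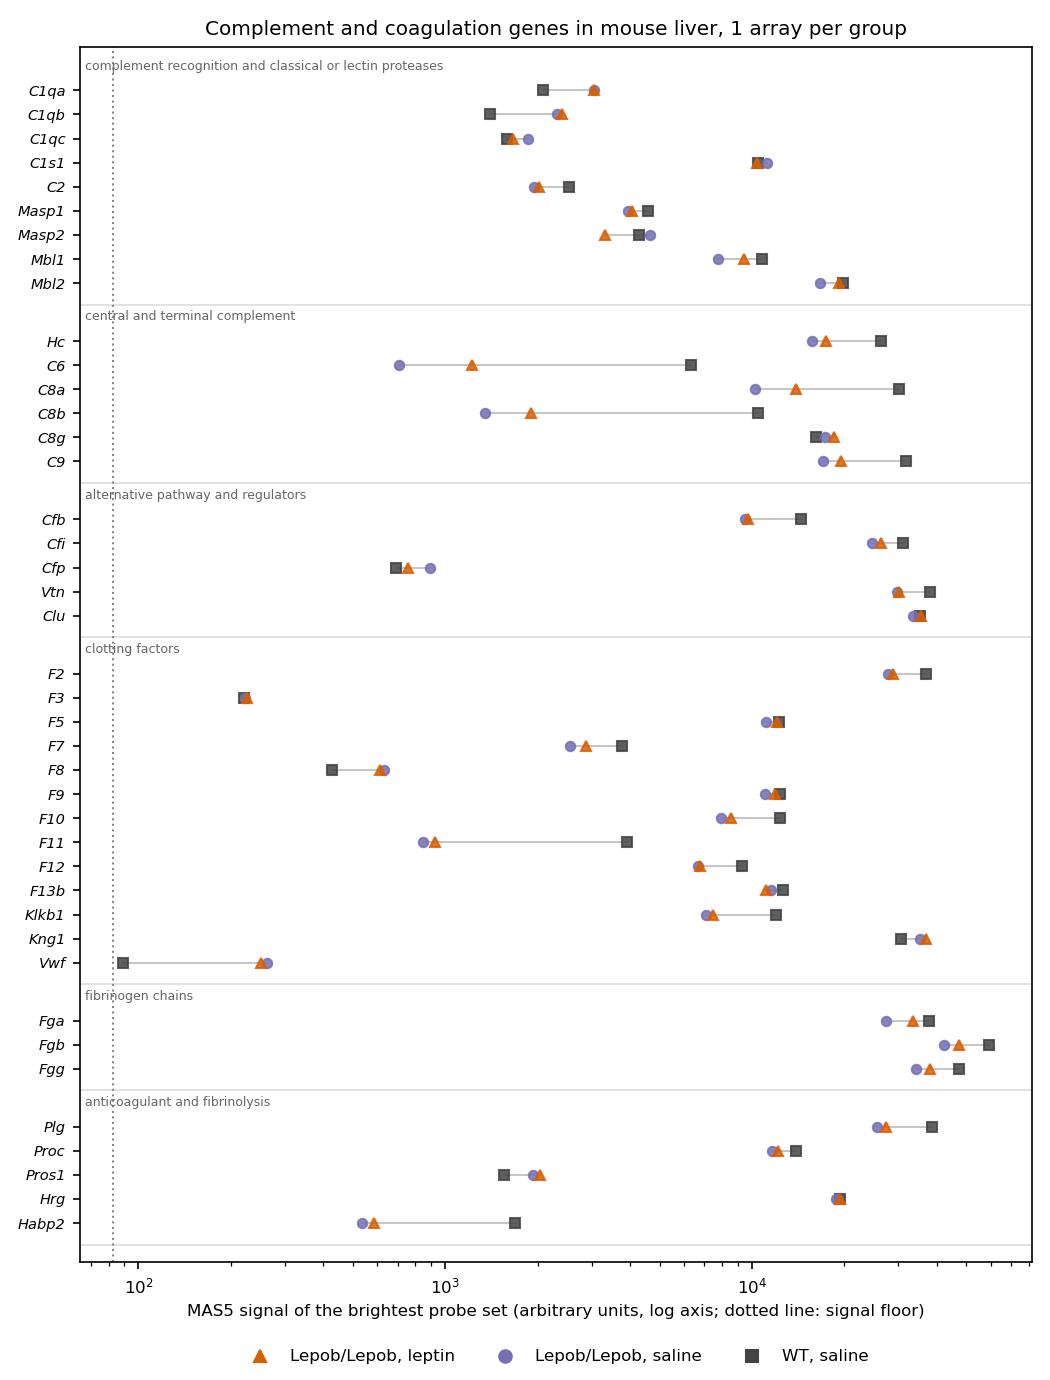
MAS5 signal (log axis, arbitrary units) of the brightest probe set of each measured gene in mouse liver, 1 point per array, grouped by role; the dotted line is the floor of 82.7. The WT square stands far right of both mutant points for C6, C8b, C8a, F11 and Habp2, and left of both for Vwf and C1qb.

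Recognition proteins and their proteases did not share a direction in mice, where 5 of 9 lay above 0 and 4 below. Of all mouse genes, 47.4% lay above 0 and 52.5% below. C1q, which binds antibody complexes, is built from 3 chains. C1qb had 2409.5 and 2315.3 in leptin- and saline-treated Lepob/Lepob, against 1398.0 in WT, 1.66-fold higher with saline, and its 3 probe sets gave log2 ratios of 0.55 to 0.73. C1qa had 3055.0 and 3059.7, against 2085.7 in WT, 1.47-fold higher with saline. C1qc had 1661.6 and 1857.8, against 1584.5, 1.17-fold higher with saline. All 3 chains were above 0 under each scaling, and the genes are adjacent on chromosome 4.

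Macrophage markers were read beside C1q and did not all share its direction. In mice 8 of 12 were above 0 in the genotype comparison, with a median log2 ratio of 0.42, and their summed signal was 33121 and 35537 in leptin- and saline-treated Lepob/Lepob, against 24836 in WT. Of the 12, 3 were at least 2-fold higher, among them Tyrobp at 3.18-fold, and 1, Cd163, was 2.11-fold lower. Marco, Timd4 and Clec4f were 1.94-fold, 1.63-fold and 1.15-fold lower. With leptin 8 of the 12 were below 0, with a median of -0.15, beside log2 ratios of -0.002 for C1qa, 0.06 for C1qb and -0.16 for C1qc. In rats C1qa, C1qb and C1qc were 1.04-fold, 1.28-fold and 1.05-fold higher in saline-treated Lepmkyo/Lepmkyo than in WT. There 7 of 9 macrophage markers were above 0, with a median of 0.155 and summed signals of 17576 and 16844 in leptin- and saline-treated mutants, against 14660 in WT. The part of macrophages in the C1q values was not tested, and in bulk liver fewer cells of a type and less RNA per cell cannot be told apart.

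The mannose-binding lectins recognise microbial sugars, and the MASP proteases act for them as C1s does for C1q. In mice Mbl1 had 9396.7 and 7756.9 in leptin- and saline-treated Lepob/Lepob, against 10766.7 in WT, 1.39-fold lower with saline. Mbl2 had 19219.9 and 16666.9, against 19805.2 in WT, 1.19-fold lower with saline, and its sign turned under a scaling, as did that of mouse Masp1. C2, a substrate of both proteases, was 1.30-fold lower with saline by its brightest probe set, and 1.65-fold and 1.37-fold lower by its others. C1s1, the mouse gene for C1s, was 1.06-fold higher. In rats Mbl2 was the lowest recognition gene. It had 11549.7 and 12644.2 in leptin- and saline-treated Lepmkyo/Lepmkyo, against 17365.5 in WT, 1.37-fold lower with saline, and a second probe set gave a 1.88-fold lower value. Rat Mbl1 had the opposite order, 7473.8 and 6573.7 in leptin- and saline-treated mutants, against 5581.7 in WT, 1.18-fold higher with saline.

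Masp1 passed 1.5-fold in rats, with 3514.0 and 3687.3 in leptin- and saline-treated Lepmkyo/Lepmkyo, against 2195.4 in WT, 1.68-fold higher with saline. A dimmer Masp1 probe set had 209.8 and 176.3, against 254.9 in WT, 1.45-fold lower, so the Masp1 probe sets disagreed in sign. In mice 4 Masp1 probe sets with a ratio ranged from -0.23 to 0.23. Mouse Masp2 had 3316.9 in leptin-treated and 4655.5 in saline-treated Lepob/Lepob, against 4286.8 in WT. Its leptin ratio, 1.40-fold lower, was the lowest of the mouse members, but its other probe set had a log2 leptin ratio of -0.04.

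The alternative pathway amplifies complement through factor B (Cfb), factor D (Cfd) and properdin (Cfp), and factor I (Cfi), vitronectin (Vtn) and clusterin (Clu) restrain the cascade. In mice Cfb had 9720.1 and 9457.0 in leptin- and saline-treated Lepob/Lepob, against 14426.1 in WT, 1.53-fold lower with saline. Cfi and Vtn were 1.26-fold and 1.29-fold lower, and Clu was 1.06-fold lower with a sign that turned after scaling. A second Vtn probe set of similar brightness had 23514.1 in saline-treated Lepob/Lepob, against 36818.0 in WT, 1.57-fold lower. Properdin, which white blood cells make, was 1.29-fold higher in saline-treated Lepob/Lepob by its brighter probe set and 2.05-fold lower by the dimmer one, whose signals were 185.3 and 132.2 in leptin- and saline-treated Lepob/Lepob, against 271.1 in WT. Neutrophil markers, of which 5 were measured in mice, had 3 above 0 and 2 below in the genotype comparison, with a median of 0.23, led by S100a8 at 3.19-fold and S100a9 at 2.45-fold higher in saline-treated Lepob/Lepob. In rats 2 were measured, S100a8, 1.30-fold higher in the saline-treated mutant, and S100a9, 1.41-fold higher. In rats all 5 measured genes of the alternative pathway group were below 0, by 1.07-fold to 1.29-fold, against 44.7% of all rat genes. The sign of rat Vtn turned after quantile normalization. Dimmer second probe sets had the opposite sign for Clu, with a log2 ratio of 0.335, and for Cfp, with one of 0.105. Rat Cfd, a product of fat cells, had 502.0 and 462.8 in leptin- and saline-treated Lepmkyo/Lepmkyo, against 599.3 in WT, 1.29-fold lower with saline. The adipocyte marker Fabp4 was higher in both saline-treated mutants, at 3250.7 against 1125.1 in WT mice and at 784.8 against 57.7, under the floor, in WT rats. Of 5 adipocyte markers 2 were measured in each species, and the 5 summed to 5942 and 6673 in leptin- and saline-treated Lepob/Lepob, against 4525 in WT mice, and to 790 and 1203 in leptin- and saline-treated Lepmkyo/Lepmkyo, against 316 in WT rats. The part of fat cells in the Cfd values was not tested.

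Among clotting factors, 9 of 13 mouse genes lay below 0, against 52.5% of all mouse genes. Of the 13, 3 were at least 1.5-fold lower, against 12.6% of all genes. F11, a protease of the intrinsic route, had 925.6 and 849.5 in leptin- and saline-treated Lepob/Lepob, against 3908.9 in WT, 4.60-fold lower with saline. Klkb1, plasma prekallikrein, lies next to F11 on chromosome 8 and resembles it in sequence. It had 7436.0 and 7062.7, against 11946.5 in WT, 1.69-fold lower with saline. F10, which joins the intrinsic and extrinsic routes, had 8543.4 and 7918.7, against 12331.4 in WT, 1.56-fold lower, with ratios of -0.90 and -0.25 for its other probe sets. F7, its neighbour on chromosome 8 and the starter of the extrinsic route, was 1.48-fold lower. Thrombin's precursor F2 had 28756.4 and 27838.3, against 37024.4 in WT, 1.33-fold lower with saline, and F12, which starts the contact route, was 1.39-fold lower. F9, F5 and F13b were 1.12-fold, 1.11-fold and 1.10-fold lower, with signs that turned under a scaling. Kininogen, Kng1, was 1.15-fold higher by 1 probe set and 1.34-fold lower by the other. Tissue factor, F3, had 226.0 and 222.9 in leptin- and saline-treated Lepob/Lepob, against 220.6 in WT.

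The window of F11, the clotting factor at least 2-fold lower, lies at chr8:45261982-45262281 on the minus strand of GRCm38.p6.
F11: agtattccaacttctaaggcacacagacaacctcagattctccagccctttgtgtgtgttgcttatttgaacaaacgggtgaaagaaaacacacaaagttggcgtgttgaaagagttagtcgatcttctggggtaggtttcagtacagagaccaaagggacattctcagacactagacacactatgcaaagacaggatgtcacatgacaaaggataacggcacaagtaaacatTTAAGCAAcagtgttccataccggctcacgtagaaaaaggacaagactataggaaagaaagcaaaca
It held 1 match, to the C/EBP letters at position -17.

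In rats 7 of 8 measured clotting factors lay below 0 and none of the 7 reached 1.5-fold. Of all rat genes measured, 44.7% lay below 0 and 5.92% were at least 1.5-fold lower. F8, the cofactor of factor IX, was 1.35-fold lower with signals of 248.4 and 215.5 in leptin- and saline-treated Lepmkyo/Lepmkyo, against 290.8 in WT. Klkb1 had 7454.8 and 6833.6, against 9016.6 in WT, 1.32-fold lower with saline. F5, the cofactor of factor X, had 6902.5 and 7011.8, against 9211.9 in WT, 1.31-fold lower with saline. F2, F9, F10 and F12 were within 1.09-fold of WT, and the sign of F9 turned under a scaling. Rat F3 was under the floor on all 3 arrays.

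Von Willebrand factor, Vwf, which carries factor VIII and tethers platelets, was the 1 member at least 2-fold higher in each species. In mice it had 251.4 and 263.1 in leptin- and saline-treated Lepob/Lepob, against 89.4 in WT, 2.94-fold higher with saline. In rats it had 390.6 and 367.2 in leptin- and saline-treated Lepmkyo/Lepmkyo, against 127.0 in WT, 2.89-fold higher with saline. Both WT signals were close to the floor, where MAS5 values are least reliable. Mouse F8, also a product of endothelial cells, had 615.2 and 632.6, against 428.3 in WT, 1.48-fold higher with saline, whereas rat F8 was lower by its brightest probe set and 1.09-fold higher by the other one measured.

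Endothelial markers were above 0 for 7 of 10 genes in mice, with a median of 0.25, and for 7 of 8 in rats, with a median of 0.31. Their summed signal was 10396 and 10809 in leptin- and saline-treated Lepob/Lepob, against 8557 in WT mice, and 9894 and 8992 in leptin- and saline-treated Lepmkyo/Lepmkyo, against 7119 in WT rats. Lyve1 was the 1 mouse marker at least 2-fold higher, at 3.88-fold. The mouse markers below 0 were Pecam1, Eng and Tie1, at 1.97-fold, 1.95-fold and 1.46-fold lower. Platelets also carry von Willebrand factor. Their markers summed to 1004 and 1102 in leptin- and saline-treated Lepob/Lepob, against 737 in WT mice, and to 665 and 598 in leptin- and saline-treated Lepmkyo/Lepmkyo, against 683 in WT rats. In mice 2 of 4 measured platelet markers were above 0 and 2 below, with a median of -0.09. Pf4 was 2.71-fold higher in saline-treated Lepob/Lepob, at 652.9 against 240.5 in WT, and made up the higher sum, Itga2b was 1.19-fold higher, and Ppbp and Gp1bb were 1.35-fold and 1.45-fold lower. In rats Pf4 was 1.09-fold higher and Itga2b 1.15-fold lower, and Gp9 was under the floor on all 6 arrays. The part of these cells in the Vwf values was not tested.

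Fibrinogen is a dimer of 3 chains, whose genes are adjacent on chromosome 3 of the mouse. Fga, the alpha chain, had 33467.4 and 27377.3 in leptin- and saline-treated Lepob/Lepob, against 37639.1 in WT, 1.37-fold lower with saline. Fgb, the beta chain, had 47124.1 and 42125.5, against 59095.8 in WT, 1.40-fold lower with saline. Fgg, the gamma chain, had 38028.7 and 34289.1, against 47218.2 in WT, 1.38-fold lower with saline. As deposited the 3 chains thus had almost the same ratio, and each leptin-treated signal lay between the other 2 arrays. Their median log2 ratio was -0.46 as deposited, -0.17 after quantile normalization and -0.21 after centring. After quantile normalization the single ratios were -0.27 for Fga, -0.10 for Fgb and -0.17 for Fgg, so they were all below 0 but no longer alike. In rats the 3 genes were within 1.03-fold of WT with saline by their brightest probe sets, and the signs of Fgb and Fgg turned under a scaling. The second rat Fga probe set had 11146.8 in saline-treated Lepmkyo/Lepmkyo, against 7812.2 in WT, 1.43-fold higher.

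The fibrinogen genes are among the brightest on the arrays, as are 12 mouse and 15 rat members in the top 1% of signals on all 3 arrays of their species. Other bright genes had mostly the same sign. Of 209 other mouse genes in that top 1%, chosen after their values were seen, 69.9% were below 0 in the genotype comparison, with a median of -0.13, against -0.39 for the 12 bright members. The 8 mouse hepatocyte markers, bright as well, had a median of -0.35 and ratios of -0.45 to -0.23. After quantile normalization the median of the 209 was 0.01. Of 176 such rat genes, 67.6% were below 0, with a median of -0.07, against -0.09 for the 15 bright members.

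The fibrinogen windows are shown because the 3 neighbouring genes encode 1 protein and are known acute phase genes. They lie at chr3:83025903-83026202 (plus strand) for Fga, chr3:83049814-83050113 (minus) for Fgb and chr3:83007474-83007773 (plus) for Fgg in GRCm38.p6.
Fga: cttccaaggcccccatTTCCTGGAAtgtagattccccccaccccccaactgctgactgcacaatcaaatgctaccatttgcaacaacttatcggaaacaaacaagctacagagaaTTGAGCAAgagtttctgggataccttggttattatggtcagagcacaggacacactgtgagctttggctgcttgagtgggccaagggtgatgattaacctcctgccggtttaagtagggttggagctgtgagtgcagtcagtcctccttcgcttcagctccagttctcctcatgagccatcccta
Fgb: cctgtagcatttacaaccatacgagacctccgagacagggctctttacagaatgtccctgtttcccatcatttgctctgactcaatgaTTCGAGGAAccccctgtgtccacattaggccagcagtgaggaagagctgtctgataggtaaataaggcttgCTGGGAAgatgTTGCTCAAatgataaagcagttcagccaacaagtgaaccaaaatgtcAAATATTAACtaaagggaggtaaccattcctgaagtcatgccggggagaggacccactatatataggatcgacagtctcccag
Fgg: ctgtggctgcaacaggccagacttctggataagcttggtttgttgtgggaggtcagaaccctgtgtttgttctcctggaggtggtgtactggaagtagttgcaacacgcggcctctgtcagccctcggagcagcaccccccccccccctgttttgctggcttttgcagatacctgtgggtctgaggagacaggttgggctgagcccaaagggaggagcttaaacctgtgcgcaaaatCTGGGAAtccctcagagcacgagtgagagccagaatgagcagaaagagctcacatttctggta
Fga held a STAT match at position -234 and a C/EBP match at -135. Fgb held matches to 4 motifs, STAT at -162, the interleukin 6 element at -91, C/EBP at -80 and HNF1 at -33, and Fgg held 1, to the interleukin 6 element at -13.

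The letters searched on both strands were GTTAAT followed by any 2 bases and TT for HNF1, CAAAGTNCA for HNF4, TTNNGCAA for C/EBP, TTCNNNGAA for STAT and CTGGGAA for the interleukin 6 element, where N is any base, and none of the printed matches overlap. These factors drive liver and acute phase genes. RefSeq windows of the same 300 bases were given for 34 of the 44 genes, 36 windows in all, among 32851 windows. HNF1 letters stood in 4 of the 36, or 11.1%, against 1.03% of all windows, and C/EBP letters in 11, or 30.6%, against 10.8%. STAT letters stood in 7, or 19.4%, against 8.30%, the interleukin 6 element in 6, or 16.7%, against 11.1%, and HNF4 letters in 1, or 2.78%, against 1.41%. A match is a description of the letters and not a bound site.

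Anticoagulant and fibrinolytic genes had 4 of 5 mouse members below 0, against 52.5% of all mouse genes. Habp2, a protease that can activate factor VII, had 584.7 and 535.6 in leptin- and saline-treated Lepob/Lepob, against 1693.8 in WT, 3.16-fold lower with saline. Its second probe set had 421.6 and 434.8, against 573.8 in WT, 1.32-fold lower, so the size of the Habp2 difference rests on 1 probe set. Plg, the precursor of plasmin, had 27366.7 and 25458.6, against 38691.1 in WT, 1.52-fold lower with saline. Proc, the precursor of activated protein C, was 1.20-fold lower, and its cofactor Pros1 was 1.24-fold higher; Hrg, a plasma protein that binds plasminogen, was 1.03-fold lower with a sign that turned under a scaling. In rats Plg had 26987.9 and 25047.5 in leptin- and saline-treated Lepmkyo/Lepmkyo, against 32276.7 in WT, 1.29-fold lower with saline. Rat Pros1 was 1.25-fold lower and rat Proc 1.09-fold higher, each opposite in sign to its mouse counterpart, and Cpb2, which protects fibrin from plasmin, was 1.02-fold higher.

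**Figure D3:**
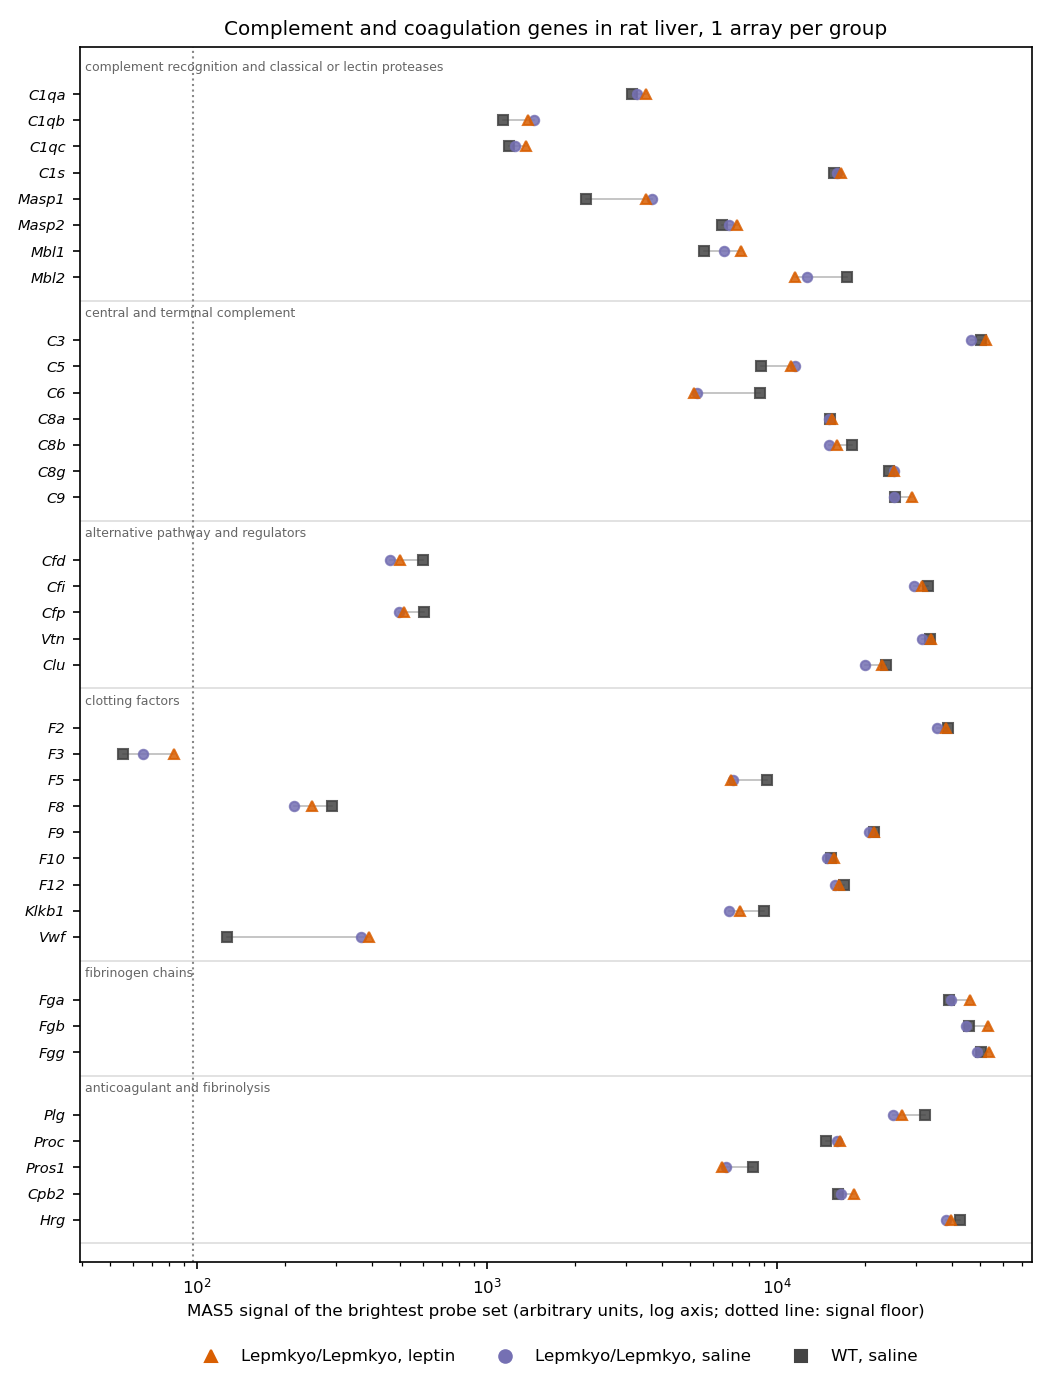
MAS5 signal (log axis, arbitrary units) of the brightest probe set of each gene in rat liver, 1 point per array, grouped by role; the dotted line is the floor of 97.0, and all 3 points of F3 lie left of it. The WT square stands left of both mutant points for Vwf and Masp1 and right of both for C6 and Mbl2, and most other genes have 3 points close together.

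In the rat genotype comparison as a whole, 1 of 36 measured members was at least 2-fold higher and 0 were lower, which is 2.78% and 0%, against 2.99% and 1.45% of the 9817 genes measured. At 1.5-fold 2 were higher, Vwf and Masp1, and 1 was lower, C6, or 5.56% and 2.78% of the members, against 10.2% and 5.92% of all genes. The members lay near or under the background in each count. In all 23 lay below 0 and 13 above, with a median of -0.05, against 0.04 for all genes, of which 44.7% lay below 0; after quantile normalization the members' median was 0.02.

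Of the genes, 33 were measured in both species. Vwf was the 1 gene 2-fold apart in the same direction in both, and C6 and Vwf were the genes 1.5-fold apart in the same direction; 0 passed 1.5-fold in opposite directions. Of 8 genes at least 1.5-fold lower in mice that had a rat value, 1, C6, was so in rats. Of all genes measured in each species, 12.6% were at least 1.5-fold lower in mice and 5.92% in rats. In all 18 genes were below 0 in both species and 7 above 0 in both. Of all genes, 52.5% were below 0 in mice and 44.7% in rats. Joint shares over all genes of both species are not given here, so these overlaps have no background. The difference between species was not tested, and the species differ in mutation, strain and array.

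**Figure D4:**
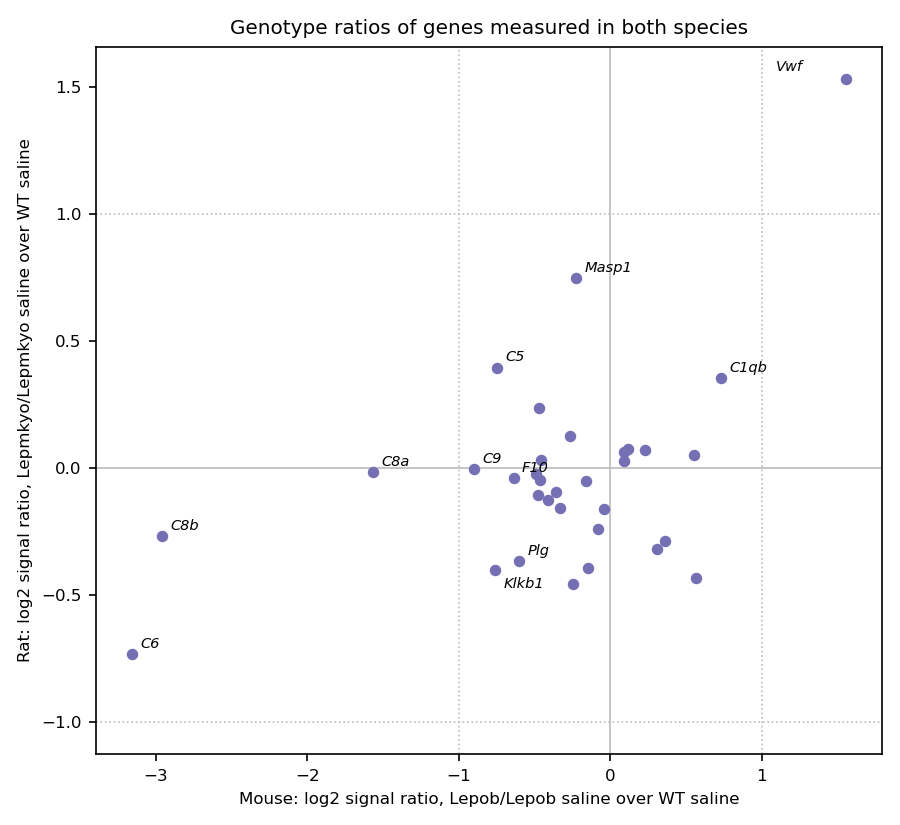
Each point is 1 of 33 genes, with its log2 ratio of saline-treated mutant over saline-treated WT in mice on the x axis and in rats on the y axis; dotted lines mark 2-fold. Vwf lies at the upper right, at 1.56 and 1.53, and C6 at the lower left, at -3.16 and -0.73, while C8b and C8a are far left in mice at rat ratios of -0.27 and -0.02.

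At 6 h after leptin, no member of either species was 2-fold from the saline-treated mutant. The background was low as well, since 0.182% of 11536 mouse genes were 2-fold higher and 0.243% lower, and 0.237% of 9705 rat genes were higher and 0.278% lower. After centring of the rat arrays those rat shares were 0.298% and 0.206%. At 1.5-fold 1 mouse member, C6, was higher and 0 were lower, against 2.18% and 2.21% of all mouse genes, and 0 rat members passed in either direction, against 2.10% higher and 2.59% lower. C6 was 1.73-fold higher in leptin-treated than in saline-treated Lepob/Lepob, and its log2 ratio to WT was still -2.36.

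Most leptin ratios were small and above 0. In mice 33 of 41 members were above 0, with a median of 0.08, against 0.00 for all genes, of which 49.4% were above 0. The 6 central and terminal complement genes were all above 0, with a median of 0.32. C8b was 1.41-fold and C8a 1.36-fold higher with leptin, and C9 and Hc 1.15-fold and 1.12-fold higher. Fibrinogen chains were 1.22-fold (Fga), 1.12-fold (Fgb) and 1.11-fold (Fgg) higher. Mbl1 was 1.21-fold higher. All these named genes kept their direction under both other scalings, and 30 of the 41 members were above 0 under all 3.

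In rats 28 of 36 members were above 0 with leptin, with a median of 0.09, against 0.01 for all genes, of which 52.0% were above 0. Fgb was highest, with 53196.2 in leptin-treated and 44871.2 in saline-treated Lepmkyo/Lepmkyo, against 45665.7 in WT, 1.19-fold higher with leptin. Fga had 46056.4 and 39852.1, against 39044.0 in WT, 1.16-fold higher with leptin. Fga's second probe set had 21273.9 and 11146.8, against 7812.2 in WT, 1.91-fold higher with leptin. Fgg was 1.10-fold higher with leptin, with a log2 ratio of 0.00 after quantile normalization. The rat C6 signals with leptin and saline differed by 1.02-fold, unlike those of mice, and this difference between species was not tested. After quantile normalization the rat members' median was 0.01 and 12 of 36 members changed sign under a scaling. Other bright genes moved the same way, since 87.5% of the 176 rat genes were above 0 with leptin, with a median of 0.09, and 78.0% of the 209 mouse genes, with a median of 0.03.

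Some neutrophil markers had larger leptin ratios than any mouse member. Of 5 measured, 3 were at least 2-fold higher in leptin-treated than in saline-treated Lepob/Lepob, S100a8 at 2.85-fold, S100a9 at 2.61-fold and Ngp at 2.23-fold, and 1, Csf3r, was 1.47-fold lower, with a median of 1.16. The 6 listed markers summed to 1944 with leptin and 813 with saline in Lepob/Lepob, against 578 in WT. In rats the 2 measured were above 0 with leptin, with a median of 0.41, and the listed markers summed to 472 and 352 in leptin- and saline-treated Lepmkyo/Lepmkyo, against 218 in WT. Properdin's mouse probe sets disagreed with leptin, at log2 ratios of -0.235 and 0.49. The part of neutrophils in the members' leptin values was not tested.

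Of the remaining marker lists, 1 red blood cell gene was measured in mice, Alas2, 2.43-fold lower in saline-treated Lepob/Lepob than in WT and 1.04-fold lower with leptin, and 2 in rats, with a genotype median of 0.235 and a leptin median of -0.12. The 3 cholangiocyte genes measured in the genotype comparison were below 0 in mice, with a median of -0.90, and above 0 in rats, with a median of 0.74. With leptin 1 was measured in mice, at 0.38, and 3 in rats, with a median of -0.01.

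**Figure D5:**
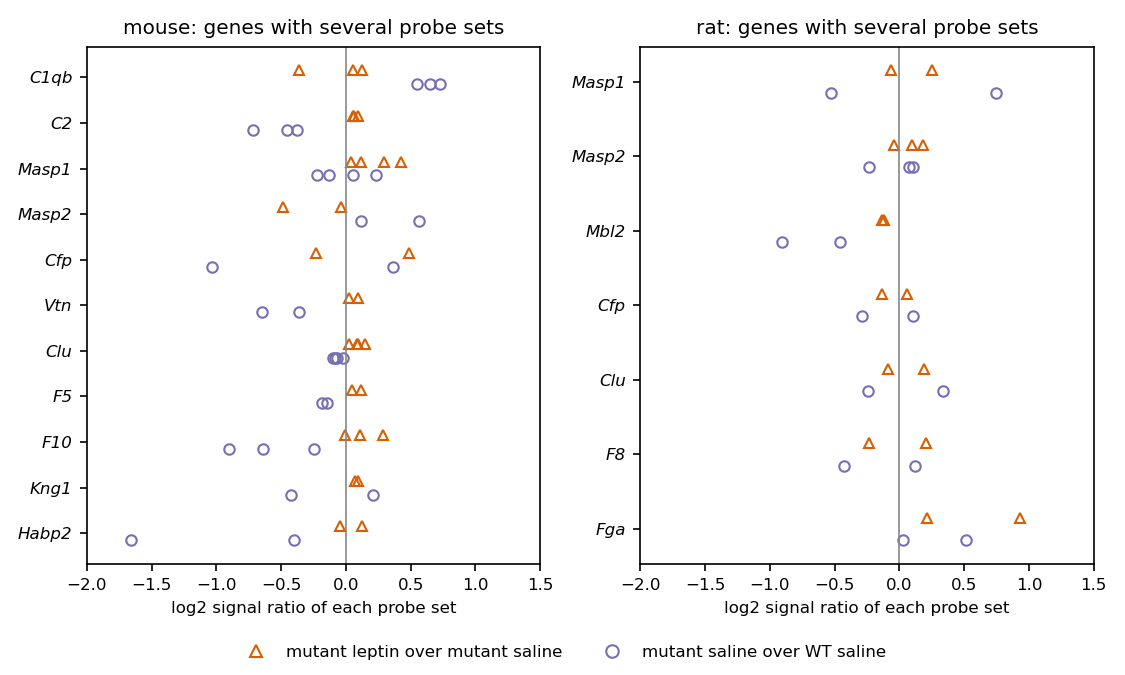
Log2 signal ratios of each measured probe set of the genes that had several, with triangles for leptin-treated over saline-treated mutant and circles for saline-treated mutant over saline-treated WT. Probe sets of mouse Clu lie together, while the circles of mouse Habp2 lie at -1.66 and -0.40 and the triangles of rat Fga at 0.21 and 0.93.

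Over the genes with several measured probe sets, 11 in mice and 7 in rats, the pooled standard deviation of the genotype ratios was 0.375 in mice and 0.43 in rats, and that of the leptin ratios 0.19 and 0.25. Most leptin ratios of the members were smaller than these. No member had probe sets 1.5-fold apart from WT in opposite directions.

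Genes of the same pathways outside the list were described for comparison. Of 16 other complement genes measured in mice, the collectin Colec11 and Cd93, once described as a C1q receptor, were 2.12-fold and 2.04-fold higher in saline-treated Lepob/Lepob than in WT, and C1ra, the protease partner of C1s, was 2.26-fold lower; their median was 0.25. Of 12 in rats none was 2-fold apart, with a median of 0.225. Of 22 other coagulation genes in mice 0 were higher and 2 lower, Ggcx, the enzyme that carboxylates vitamin K-dependent factors, at 2.30-fold and Serpinf2, the plasmin inhibitor, at 2.23-fold, with a median of -0.27. Of 23 in rats 4 were higher, the plasminogen activator Plat at 4.07-fold, the thrombin receptor F2r at 3.16-fold, Serpina5 at 2.95-fold and the protease inhibitor A2m at 2.55-fold, and 0 were lower, with a median of 0.22. With leptin, 1 of these genes passed 2-fold, rat A2m, at 1980.8 in leptin-treated and 291.8 in saline-treated Lepmkyo/Lepmkyo, against 114.5 in WT, 6.79-fold higher.

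Transcription factors of hepatocytes were read as well. Of 14 in mice, Ppara and Cebpd were 3.39-fold and 2.89-fold higher in saline-treated Lepob/Lepob and Onecut1 and Foxa1 8.03-fold and 3.38-fold lower. Of 14 in rats, 1 was 2-fold apart. Onecut1 had 237.9 and 202.5 in leptin- and saline-treated Lepob/Lepob, against 1625.2 in WT mice, and 1596.6 and 1780.1 in leptin- and saline-treated Lepmkyo/Lepmkyo, against 5405.6 in WT rats, 3.04-fold lower with saline. Its part in the members' values was not tested. The interleukin 6 acute phase list also held cytokine receptors and Socs3. Of its 21 genes in mice, 2 were at least 2-fold higher, Orm3 at 5.93-fold and Lcn2 at 4.47-fold. Another 2 were lower, Saa2 at 6.89-fold and Saa1 at 2.92-fold, and the median was -0.26. With leptin 16 of the 21 were above 0, with a median of 0.165. In rats 0 of 14 were 2-fold apart in the genotype comparison, with a median of -0.09, and 12 of 13 were above 0 with leptin, with a median of 0.17.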

How the data were processed

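Trizol-extracted liver RNA was labelled and hybridised by the standard Affymetrix method, according to the labels. The authors summarised probes into deposited linear intensities with MAS5 (version not given in the sources used here), per the submitters' processing notes; no detection calls were used here, so a floor stood in for them. The number of arrays limits the precision. Symbols were read from the annotation of each platform. In mice 34945 probe sets had 1 symbol, 932 several and 9160 none, and 34741 matched RefSeq genes of GRCm38.p6. In rats 20826 had 1, 436 several and 9780 none. Those without exactly 1 symbol were not used.

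From these intensities, ratios of log2 signals were computed in Python 3.11.15 with numpy 2.4.6 and pandas 2.3.3, after values under the floor were raised to it. The calculation was tested on simulated data. The members and lists (other complement, other coagulation, hepatocyte transcription factor, interleukin 6 acute phase, and hepatocyte, macrophage, endothelial, platelet, adipocyte, neutrophil, red blood cell and cholangiocyte markers) were chosen with earlier results of these data known. All members could be named, with the largest ratios given in full. The alternatives tried were 2 scalings, 2 floors, the median over probe sets, excluding probe sets with suffixes for shared transcripts, and log2(signal + floor). Saline-treated mutant was compared with saline-treated WT, and leptin-treated with saline-treated mutant.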

Additional observations from a re-analysis of the deposited data

How the results depend on the processing

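No paired analysis was possible because each group held 1 array, and for the same reason no replicate could be left out. Of 84 counts and medians recomputed under 7 alternatives, 80 stayed within 1.5 times, for counts, or within the spread between probe sets and on the same side of 0, for medians. Every median as deposited was itself smaller than that spread, so one that shrank to near 0 still counted among the 80. The mouse genotype median, for instance, went from -0.33 to -0.08 after centring. Counts of 0 that stayed at 0 were also among the 80. With the floor at the 75th percentile, Vwf was under it on both arrays in each species, so the members at least 2-fold higher numbered 0 in mice and 0 in rats. Without probe sets that can bind several transcripts, 3 mouse members were at least 2-fold lower, because C8b had no other probe set and the remaining Habp2 probe set gave a log2 ratio of -0.40. The rat genotype median turned to 0.02 after quantile normalization (0.019 unrounded); the cause was not tested. Of 1056 ratios of single members, 14 moved by more than the spread between probe sets. A reversal was counted only for ratios of at least 1.5-fold as deposited, and 0 of these changed sign. Some smaller ratios changed sign by more than the spread. The mouse Cfp genotype ratio went from 0.36 to -0.34 as the median over probe sets. Without probe sets that can bind several transcripts, the rat Clu genotype ratio went from -0.24 to 0.335. The log2 ratio of Vwf was as low as 1.01 in mice and 1.05 in rats with log2(signal + floor), and the rat Fga leptin ratio reached 0.57 as the median over probe sets and 0.93 without those probe sets. Differences of dim genes close to the floor, and any variation between animals, could not be assessed with these arrays.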
